A study of Mus musculus with 3 samples.

Results

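Saa3-high fibroblasts were 236 of the 19707 cell barcodes recovered from injured mouse muscle around a polymer implant. They were selected on measured UMIs (unique molecular identifiers, 1 per captured molecule). A barcode needed at least 1000 UMIs, under 20% of them mitochondrial, at least 1 Pdgfra UMI and none of Ptprc or Cdh5. It also needed at least 50 UMIs of Col1a1, Col1a2 and Col3a1 together per 10000, and at least 5 Saa3 UMIs per 10000. Barcodes with 5 or more Mki67 and Top2a UMIs, with 20 or more Eln UMIs per 10000 or with over 2 Pi16 UMIs were left out. Replicates 1, 2 and 3 gave 39, 156 and 41 such cells.

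All cells came from quadriceps muscle and the fibrotic implant of C57BL/6 WT mice, wildtype animals of a common inbred strain. The animals had volumetric muscle loss, the surgical removal of a piece of muscle, and the defect held particulate of PCL (polycaprolactone, a degradable polyester) for 6 weeks. Dead cells were removed, and CD45+ leukocytes and CD45- cells were separated on magnetic beads and pooled 1:1. Shares of stromal cells therefore depend on that mixing. The 3 libraries analysed here form 1 group with no control group beside it, so classes of cells were compared inside each library. Whether each library is a different animal is not stated. The p-values below therefore reflect the spread among these 3 samples alone, and that spread may be technical.

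Serum amyloid A proteins are acute-phase proteins, best known from liver, whose blood level rises in inflammation. Saa3 is the mouse member of the family made mainly outside the liver, by macrophages, fibroblasts and fat tissue. In stromal cells its transcription is known to be induced by interleukin-1, tumour necrosis factor and interleukin-6 family signals through NF-kB and C/EBP factors. Fibroblasts in such a state also release chemokines, complement proteins and matrix-degrading enzymes. Of the other genes used to mark the cells, Mmp3 encodes stromelysin-1, a matrix protease, C3 the central complement protein, Cxcl12 a chemokine that retains leukocytes and progenitors, and Slit2 a secreted ligand of Robo receptors.

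The libraries held 104482261 to 192348779 UMIs, and 18349 barcodes passed the UMI and mitochondrial criteria. Libraries shared 10 to 13 barcodes pairwise, none of them a Saa3-high fibroblast. Saa3-high fibroblasts had median depths of 34865, 26092 and 33106 UMIs in replicates 1, 2 and 3. Scrublet's highest doublet scores included 0, 7 and 0 of them. The label could be checked against 8 fibroblast markers, whose summed level was 57451 to 66210 CPM (UMIs of a gene scaled to a common library total) in Saa3-high fibroblasts and 55916 to 61040 CPM in Saa3-low fibroblasts, although 4 of those markers were used in the rule. Macrophage markers summed to 34.2 to 53.4 CPM in Saa3-high and 32.4 to 57.9 CPM in Saa3-low fibroblasts. None of 10 was called different in the comparison described below. Neutrophil markers summed to 6.87 to 19.96 CPM against 18.1 to 20.4 CPM, lymphocyte markers to 0 to 1.65 CPM against 1.14 to 1.88 CPM, and endothelial markers to 3.70 to 19.1 CPM against 9.47 to 13.7 CPM. Of 7 neutrophil, 7 lymphocyte and 7 endothelial markers, Cd3e, Cd8a, Nkg7, Cxcr2, Ly6g, Cldn5 and Tie1 had 0 UMIs in all 236 cells. The other genes of these lists each had at least 1 UMI. Of 3 neutrophil, 1 lymphocyte and 3 endothelial markers that could be tested none was called, and of 4 fibroblast markers outside the rule Fbln1 was called higher.

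Saa3 ran from none to very high among the fibroblasts, with no gap at the threshold. Of 3411 fibroblasts that passed every criterion but Saa3, 2769 (81.2%) had no Saa3 UMI. Above 0 and under 1 per 10000 were 61, 183 and 57 cells in replicates 1, 2 and 3, and from 1 to under 5 were 16, 71 and 18. Close to the threshold, 15 cells lay between 4 and 5 Saa3 UMIs per 10000 and 9 between 5 and 6. The highest value below the threshold was 4.95 per 10000 and the lowest inside it was 5.01. Median Saa3 in the selected cells was 32.9, 25.8 and 20.8 per 10000 in replicates 1, 2 and 3, and the highest cell reached 334 per 10000. Saa3-high cells made up 5.46%, 8.18% and 5.20% of these 3411 fibroblasts by library (exact 95% binomial intervals 3.91% to 7.39%, 6.99% to 9.497% and 3.75% to 6.98%, counting error only), with a mean of 6.28% ± 1.65 (SD, n = 3). Of all barcodes passing quality they were 0.693%, 1.92% and 0.895%, a mean of 1.17% ± 0.656 (SD, n = 3). Replicate 2 had the highest share on both scales and supplied most of the cells.

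**Figure D1:**
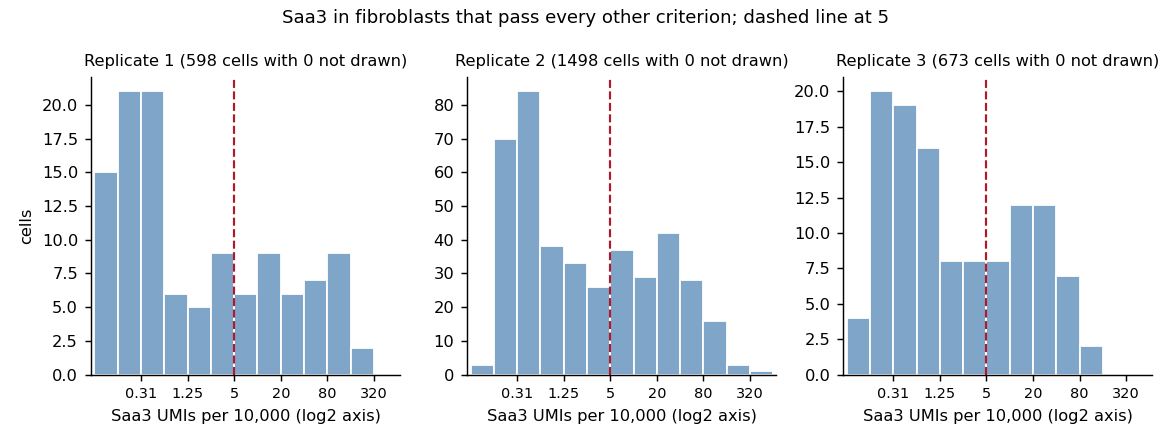
Saa3 UMIs per 10000 (log2 axis) in fibroblasts that passed every other criterion, as cells per bin and by library, with the threshold of 5 as a dashed line. The 598, 1498 and 673 cells with no Saa3 UMI are not drawn, and cells occur on both sides of the line in each library.

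The Pi16 criterion decided which Saa3-high fibroblasts were counted here. Pi16 marks the adventitial or universal fibroblasts described in many mouse tissues. Before it was applied, 779 fibroblasts passed, and 543 of them had over 2 Pi16 UMIs, so the 236 cells were 30.3% of Saa3-high fibroblasts (23.2%, 30.5% and 41.4% by library). Among the 236, 131 had no Pi16 UMI, 60 had 1 and 45 had 2. Of 4998 Pi16-positive fibroblasts, 10.9% were Saa3-high, with a median of 26.8 Saa3 UMIs per 10000, against 25.3 in the 236 cells. The limit is a count of UMIs, so it also depends on depth: the median was 29285 UMIs in the 543 cells.

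Saa3 was also found in part of the Pi16-positive fibroblasts and was lower in the other classes. Its level, as CPM of summed UMIs, was 4788, 3985 and 2572 CPM in Saa3-high fibroblasts of replicates 1, 2 and 3, as the rule fixed. Pi16-positive fibroblasts were taken at any Saa3 level and held 668, 630.3 and 322 CPM. A Saa3 UMI was found in 26.1%, 25.7% and 13.8% of them, and their median Saa3 was 0 in each library. Among Saa3-low counterparts, the 3175 fibroblasts that failed the Saa3 criterion alone, Saa3 was at 9.72, 13.9 and 10.3 CPM. The rule fixed that low level too, so the step between these 2 classes is no result. Macrophages held 14.9, 15.3 and 10.2 CPM, neutrophils 5.95, 12.2 and 3.60 CPM, and endothelial cells 0.883, 15.02 and 1.15 CPM. A Saa3 UMI was found in 10.0% to 14.5% of counterparts at median depths of 26304.5 to 33292 UMIs. The share was 1.57% to 6.38% in endothelial cells, not known as a main source of Saa3, at depths of 12152 to 14599 UMIs, and 2.06% to 5.91% in neutrophils at 4397 to 5730 UMIs. After every cell was thinned to 5000 UMIs, which left out 3 Saa3-high cells per library and 25, 41 and 26 counterparts, the share was 97.2%, 100% and 100% in Saa3-high cells and 3.85%, 3.86% and 3.46% in counterparts.

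The other marker genes followed Saa3 to different degrees, and their values are given as a description with no test. Mmp3 was at 2700, 2143 and 2041 CPM in Saa3-high cells against 578, 686 and 579 CPM in counterparts. C3 was at 5321, 5449 and 4606 CPM against 1664, 1748 and 1663 CPM, and Cxcl12 at 1656, 2424 and 2291 CPM against 281, 423 and 440 CPM. For these 3 genes the lowest Saa3-high library lay above the highest counterpart library. Slit2 levels overlapped: 390, 504 and 247 CPM stood against 249, 257 and 287 CPM, and in replicate 3 the Saa3-high cells were below their counterparts. At an equal depth of 5000 UMIs, however, Slit2 was found in 61.1%, 54.2% and 42.1% of Saa3-high cells and in 32.2%, 36.0% and 33.9% of counterparts, a larger share in each library. Of the 236 cells, 235 had a C3 UMI, 235 Cxcl12, 220 Mmp3 and 172 Slit2, and 159 had all 4.

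**Figure D2:**
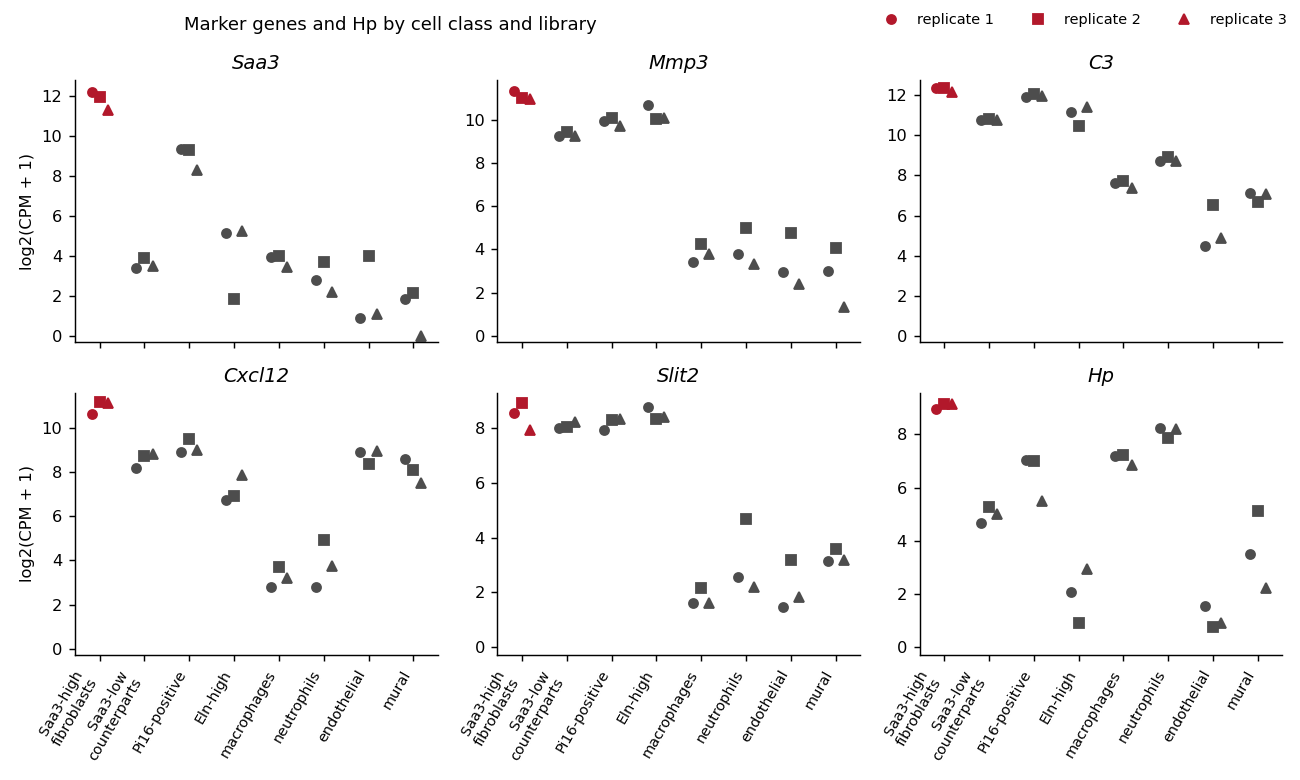
Levels of the 5 marker genes and Hp, as log2(CPM + 1), in 8 cell classes, with a point per library (circles, squares and triangles for replicates 1, 2 and 3). The Saa3-high fibroblasts (red) lie above all other classes for Saa3 and Cxcl12 and share the Slit2 range of the other fibroblasts.

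Promoter sequences are shown for Saa3, for Ptx3, an acute-phase gene, and for Mmp13, the protease gene that led the comparisons with other fibroblast classes. Each run is the 250 bases before a RefSeq gene start on GRCm38.p6, read 5′ to 3′ on the gene's strand: Saa3 at chr7:46715677-46715926, minus strand, Ptx3 at chr3:66219637-66219886, plus strand, and Mmp13 at chr9:7272264-7272513, plus strand. Capitals mark matches on either strand to a C/EBP-type motif (TTNNGNAA), an AP-1-type motif (TGANTCA), an NF-kB-type motif (GGG, any 5 bases, then CC) or a TATA-type motif (TATAAA).
Saa3: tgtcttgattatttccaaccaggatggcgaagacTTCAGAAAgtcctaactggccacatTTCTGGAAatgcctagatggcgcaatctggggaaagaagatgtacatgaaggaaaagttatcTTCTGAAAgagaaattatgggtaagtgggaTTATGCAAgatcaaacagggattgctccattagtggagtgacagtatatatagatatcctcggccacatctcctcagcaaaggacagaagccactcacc
Ptx3: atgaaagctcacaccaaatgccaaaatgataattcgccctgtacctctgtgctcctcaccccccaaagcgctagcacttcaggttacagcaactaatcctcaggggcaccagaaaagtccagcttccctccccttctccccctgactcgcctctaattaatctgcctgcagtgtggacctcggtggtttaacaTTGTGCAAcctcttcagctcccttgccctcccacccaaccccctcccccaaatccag
Mmp13: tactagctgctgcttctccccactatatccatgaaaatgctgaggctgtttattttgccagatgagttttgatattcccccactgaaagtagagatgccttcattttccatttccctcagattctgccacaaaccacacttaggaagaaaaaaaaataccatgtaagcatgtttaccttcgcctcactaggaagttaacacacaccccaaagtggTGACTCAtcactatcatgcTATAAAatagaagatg
The Saa3 run holds 4 C/EBP-type matches (TTCAGAAA, TTCTGGAA, TTCTGAAA and TTATGCAA, the last at -99 to -92 from the start) and the Ptx3 run holds 1, TTGTGCAA at -57 to -50. The Mmp13 run holds the AP-1-type TGACTCA at -35 to -29 and TATAAA at -16 to -11. Such matches are common: of 32851 windows of this length, 36.85% held the C/EBP-type motif, 45.8% the NF-kB-type, 6.75% the AP-1-type and 12.4% the TATA-type. A match is a description of these letters and not a bound site.

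To find the genes that go with Saa3, Saa3-high fibroblasts were compared with their Saa3-low counterparts. Since Saa3 split the cells, the comparison says which genes differed along with it. The rule and marker genes stayed out of every count. UMIs were summed per library and class, and a gene was called at an edgeR quasi-likelihood p under 0.05 after Benjamini-Hochberg adjustment over all genes tested (called edgeR adjusted p below) and a fold of at least 1.5. Of 13957 genes, 496 (3.55%) were higher in Saa3-high cells and 442 (3.17%) were lower. The counts fell to 277 and 249 with cells thinned to 5000 UMIs, to 300 and 255 without replicate 2, and the lower count to 264 without replicate 1.

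Acute-phase genes led the higher genes. Of 14 genes on this list, 10 passed the filter on low counts, and 9 of those were called higher and 0 lower, with a median log2 difference of 1.82 against -0.02 over all genes tested. Hp encodes haptoglobin, the plasma protein that binds free haemoglobin. It was at 513, 585 and 579 CPM in Saa3-high cells and at 23.7, 37.0 and 29.99 CPM in counterparts, a log2 difference of 4.22 ± 0.11 (SE; edgeR adjusted p = 4.38e-11, n = 3 libraries). The groups did not come near each other in any library. An Hp UMI was found in 69.2%, 68.6% and 75.6% of Saa3-high cells and in 15.4%, 17.2% and 15.4% of counterparts, beside 1.22% to 3.13% of endothelial cells. Macrophages and neutrophils, which are known to make haptoglobin, held it in 38.6% to 48.6% and 40.5% to 47.6% of cells. These shares are not at equal depth. Median depths were 26092 to 34865 UMIs in Saa3-high cells, 12283 to 16385 in macrophages and 4397 to 5730 in neutrophils. With cells thinned as for Saa3, Hp was found in 33.3%, 52.9% and 42.1% of Saa3-high cells. Counterparts then held it in 6.15%, 7.77% and 6.23% of cells. A larger share in Saa3-high cells than in neutrophils is thus not shown.

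Ptx3 encodes the long pentraxin 3, a soluble pattern-recognition protein. It was at 590, 350.5 and 199.5 CPM against 67.8, 87.5 and 54.6 CPM (log2 difference 2.34 ± 0.18 SE, edgeR adjusted p = 3.21e-06), with the highest level in replicate 1. Cp, the copper-carrying ferroxidase ceruloplasmin, was at 457, 515 and 412 CPM against 104, 118 and 128 CPM (1.99 ± 0.10 SE, edgeR adjusted p = 9.62e-08). Lcn2, the siderophore-binding lipocalin 2, was rarer and uneven, at 61.5, 41.5 and 7.79 CPM against 2.16, 1.10 and 1.42 CPM (4.53 ± 0.38 SE, edgeR adjusted p = 5.71e-06). Only 37 of the 236 cells had an Lcn2 UMI, whereas 165 had Hp. Saa1, a liver-type family member, was called at low levels of 3.07, 20.9 and 1.56 CPM against 0.942, 0.902 and 0.461 CPM, and without replicate 2 its edgeR adjusted p was 0.538. Reads of Saa1 and Saa2, which are near-identical copies, may have been divided between them. The remaining called genes were Lbp, Serpina3n, Serpina3g and Steap4, while Saa2, Saa4, Orm1 and Orm2 did not pass the filter on low counts.

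Chemokine genes were the next group. All 17 on the list were tested, 11 were called higher and none lower, with a median log2 difference of 1.08. Cxcl1, Cxcl5, Ccl7, Ccl8 and Ccl11 attract neutrophils, monocytes or eosinophils. Ccl7 was at 720, 721 and 631 CPM against 300, 320 and 225 CPM (log2 difference 1.30 ± 0.08 SE, edgeR adjusted p = 6.88e-07). Cxcl5 was at 716, 1013 and 901 CPM against 346, 411 and 266 CPM (1.37 ± 0.11 SE, edgeR adjusted p = 4.19e-06). Ccl2, the main monocyte chemokine, was at 649, 557 and 412 CPM against 464, 429 and 278 CPM and did not reach the 1.5-fold limit.

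Ligands of lymphocyte receptors were among the called chemokines as well. Ccl19, a ligand of CCR7, was at 104, 91.8 and 81.8 CPM against 26.1, 24.4 and 36.1 CPM (log2 difference 1.72 ± 0.14 SE, edgeR adjusted p = 4.78e-06). Cxcl9, a ligand of CXCR3, was at 77.6, 108 and 85.7 CPM against 16.3, 29.6 and 30.8 CPM (1.85 ± 0.13 SE, edgeR adjusted p = 1.62e-06). Both were separated in all 3 libraries. Cxcl10, another CXCR3 ligand, was at 267, 234 and 45.2 CPM against 30.6, 42.5 and 45.9 CPM (2.10 ± 0.37 SE, edgeR adjusted p = 0.00202), with nearly equal levels in replicate 3. Cxcl13, the B cell chemokine, was at 48.4, 34.1 and 29.6 CPM against 10.1, 3.75 and 29.4 CPM (1.92 ± 0.41 SE, edgeR adjusted p = 0.00719). For Cxcl10 and Cxcl13 the edgeR adjusted p was 0.0756 and 0.134 without replicate 1, and 0.144 and 0.227 without replicate 2.

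Of 15 complement genes tested, besides C3 itself, 9 were called higher, 0 lower and 6 neither, with a median log2 difference of 1.07. They included genes of the classical pathway (C1s1, C1ra, C1rb, C2 and C4b), the lectin pathway protease Masp1, the alternative pathway's factor B (Cfb), and the inhibitor Serping1. Cfb was at 446, 447 and 365 CPM against 139, 150 and 125 CPM (1.60 ± 0.08 SE, edgeR adjusted p = 9.80e-08). C4b was at 595, 668 and 565 CPM against 255, 240.1 and 249.9 CPM (1.29 ± 0.09 SE, edgeR adjusted p = 7.53e-07). Genes of activating proteases and of an inhibitor were thus both called higher. C1ra and C1rb are near-identical copies, and C1rb, at 1.54 to 3.93 CPM, is uncertain for that reason.

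Cytokine, receptor and transcription-factor genes changed less uniformly. Of 20 cytokines and receptors, 9 were called higher and 1 lower (median log2 difference 0.40). Il6 was at 500.2, 496 and 265 CPM against 137, 189 and 152 CPM (1.37 ± 0.15 SE, edgeR adjusted p = 4.00e-05). Il33, an alarmin, was at 466, 464 and 419 CPM against 195, 243 and 177 CPM (1.14 ± 0.09 SE, edgeR adjusted p = 3.21e-06). The interleukin-1 receptor Il1r1 was at 620, 527 and 388 CPM against 239, 276 and 204 CPM (1.08 ± 0.10 SE, edgeR adjusted p = 9.94e-06). Il1rap, Il6st, Il17ra, Il4ra and Tnfrsf1b, which encode further receptor subunits, were called higher too. Csf3 was called higher with 26.1 CPM in replicate 1 and 0.982 and 1.56 CPM in the others, and its edgeR adjusted p was 0.349 without replicate 1 and 0.0559 without replicate 2. Csf2, called lower, stayed under 4 CPM in every library of both classes.

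Among 10 genes of the STAT3 and C/EBP axis, 5 were called higher (Socs3, Cebpb, Cebpd, Pim1 and Il6st) and 1 lower (Fgl2), with a median log2 difference of 0.47. Cebpb was at 486, 538 and 390.5 CPM against 191, 246 and 192 CPM (1.16 ± 0.09 SE, edgeR adjusted p = 2.19e-06). Of 14 NF-kB targets and feedback genes, 4 were called higher (Nfkbiz, Zc3h12a, Vcam1 and Sod2) and 1 lower (Traf1), with a median of 0.46. Without replicate 1 the edgeR adjusted p was 0.144 for Zc3h12a and 0.0798 for Traf1, without replicate 2 it was 0.153 for Zc3h12a, and both calls were lost with cells thinned. Nfkbiz encodes a nuclear co-activator of secondary inflammatory genes. Sod2, the mitochondrial superoxide dismutase, was at 439, 252 and 203 CPM against 79.5, 92.3 and 69.6 CPM (1.82 ± 0.16 SE, edgeR adjusted p = 7.14e-06). The inhibitor gene Nfkbia (0.21), Tnfaip3 (0.23), Nfkb1 (-0.03) and Relb (0.15) were not called. Among interferon-response genes, 8 of 15 were called higher and 0 lower (median 0.67), among them Ifit1, Ifit3, Isg15, Rsad2 and Iigp1. Without the library block, the edgeR adjusted p was 0.133 for Ifit3 and 0.0606 for Ifit1, and without replicate 2 it was 0.22 for Rsad2. In a sub-cluster of 35 Saa3-high cells, described below, Ifit1 was at 396 CPM and Ifit3 at 176 CPM. The other Saa3-high cells held them at 30.7 and 15.6 CPM. With cells thinned, Ifit3 was found in 5.56%, 7.84% and 10.5% of Saa3-high cells and 8.15%, 3.27% and 6.51% of counterparts.

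The C/EBP-type letters were found near 41.3% of 373 called-higher genes with a listed promoter, near 33.6% of 327 called-lower genes and near 32.9% of 10634 genes tested, with 1.34, 1.39 and 1.29 windows per gene. For the NF-kB-type motif the shares were 64.1%, 69.1% and 66%. The AP-1-type motif was near 9.92%, 10.4% and 5.88%, and the TATA-type near 13.4%, 12.8% and 8.25%. These are shares of letters in windows, with no test. AP-1-type and TATA-type letters were near larger shares of called genes of either direction than of all genes tested.

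Matrix proteases were divided. Of 18 proteases and inhibitors, besides Mmp3, 7 were called higher (Mmp2, Mmp11, Mmp13, Mmp27, Adamts4, Adamts5 and Adamts15), 1 lower (Mmp9) and 10 neither, with a median log2 difference of 0.39. With cells thinned, the calls of Mmp9, Mmp11 and Mmp27 were lost. Mmp9 also lost its call with no library block, and Mmp27 without replicate 2. Mmp13, collagenase-3, was at 526, 619 and 1037 CPM against 95.8, 203 and 176 CPM (2.20 ± 0.15 SE, edgeR adjusted p = 8.28e-07). Only 54 of 236 cells had an Mmp13 UMI, so the level rested on a minority. Mmp2, gelatinase A, was at 1586, 1503 and 1162 CPM against 895, 939 and 824 CPM (0.67 ± 0.08 SE, edgeR adjusted p = 0.000114). Timp1, an inhibitor of these enzymes, was at 1258, 1241 and 1374 CPM against 1535, 1446 and 1219 CPM and was not called.

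Of 22 interstitial matrix genes, 0 were called higher and 6 lower: Col5a3, Col6a1, Col6a2, Col6a3, Col11a1 and Fn1. Fn1, fibronectin, was at 3102, 4124 and 4247 CPM against 6406, 6769 and 6788 CPM (log2 difference -0.81 ± 0.08 SE, edgeR adjusted p = 2.23e-05). Col5a3 was at 724, 941 and 1062 CPM against 1741, 1764 and 1774 CPM (-0.97 ± 0.09 SE, edgeR adjusted p = 1.81e-05). The list's median was -0.04, and Col1a1, used in the rule, was at 14075, 15626 and 17700 CPM against 12802, 13015 and 14152 CPM. Of 13 basement membrane genes, Col18a1 alone was called, and lower. Of 14 myofibroblast genes, 0 were called higher and 6 lower (Acta2, Tagln, Lrrc15, Tgfbi, Ccn2 and Comp), with a median of -0.57. Tagln lost its call under 6 alternatives, with an edgeR adjusted p of 0.222 without replicate 2 and 0.252 with cells thinned. Acta2, smooth muscle actin, was at 13.8, 27.5 and 31.2 CPM against 102, 93.0 and 69.4 CPM (-1.83 ± 0.20 SE, edgeR adjusted p = 4.20e-05).

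The genes of largest difference among those called at 50 CPM or more included several outside the lists. Rgs16, a regulator of G-protein signalling, was at 59.9, 80.5 and 61.6 CPM against 8.68, 17.3 and 15.8 CPM (log2 difference 2.29). Chl1, a neural-type adhesion molecule, was at 1024, 471 and 493 CPM against 157, 158 and 113 CPM (2.13), and Lgi2 at 310, 332 and 278 CPM against 66.9, 71.1 and 74.5 CPM (2.12). Gbp5, an interferon-inducible GTPase (2.10), Tnfsf8, the CD30 ligand (2.02), and Srgn, the proteoglycan serglycin (1.99), followed. On the lower side, Igfbp6, a binding protein of insulin-like growth factor 2, was at 495, 438 and 337 CPM against 1779, 1501 and 1420 CPM (-1.89 ± 0.08 SE, edgeR adjusted p = 2.63e-08). Fmod, the tendon proteoglycan fibromodulin, was at 0.768, 44.4 and 3.90 CPM against 234, 209 and 62.4 CPM (-3.11 ± 0.39 SE, edgeR adjusted p = 0.000158), and its edgeR adjusted p was 0.0555 with no library block. Myoc (-2.79), Ccdc3 (-2.30), Anxa8 (-2.21), Cd109 (-2.10), Lsamp (-2.08), Nfatc2 (-2.03) and Cdh13 (-2.02) followed. Lsamp lost its call under 3 alternatives: with DESeq2, with no library block and without replicate 2. Every gene of this paragraph had the same direction in 3 of 3 libraries.

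**Figure D3:**
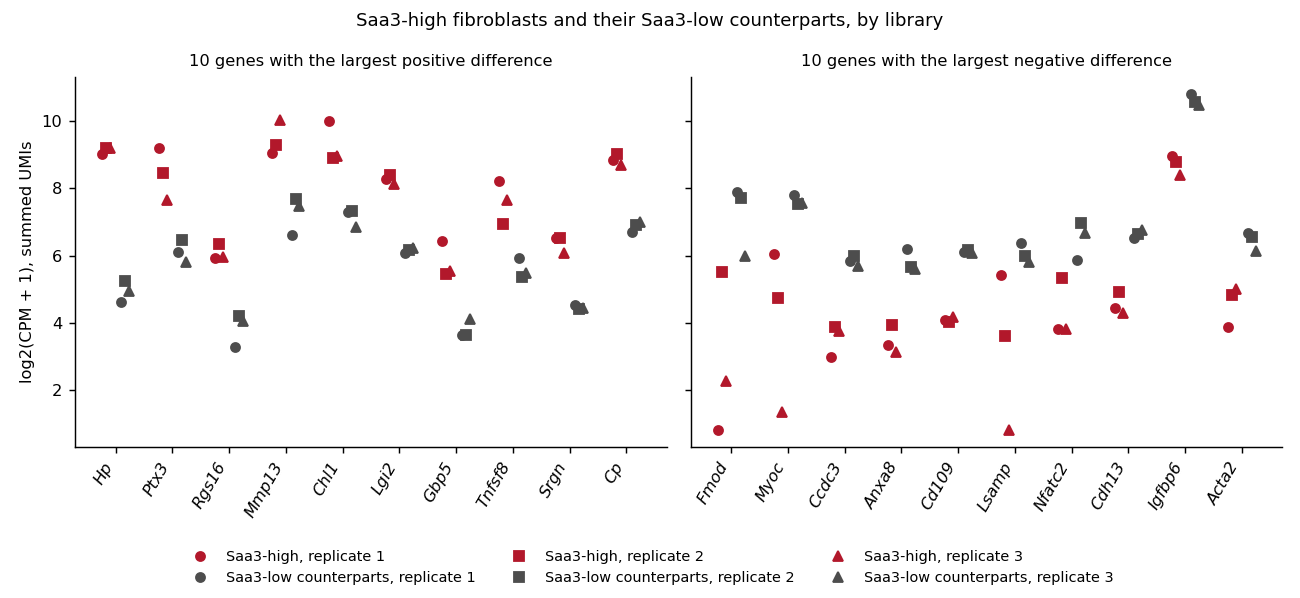
Levels, as log2(CPM + 1) of summed UMIs, of the 10 genes with the largest positive and the 10 with the largest negative difference among called genes at 50 CPM or more on the higher side, in Saa3-high fibroblasts (red) and Saa3-low counterparts (grey), with a symbol per library. Fmod, Myoc and Lsamp spread widely between libraries in the Saa3-high cells, whereas Hp, Cp and Lgi2 lie close together.

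Several tenocyte and muscle fibre markers were among the lower genes, whereas mural markers were called in both directions. Tenocyte markers summed to 320 to 416 CPM in Saa3-high cells and 753 to 1380 CPM in counterparts, none at 0, and 4 of 5 were called lower (Tnmd, Scx, Fmod and Thbs4). Muscle fibre markers summed to 10.4 to 22.2 CPM against 31.3 to 68.8 CPM, and 4 of 7 were called lower. Synovial lining markers summed to 29.6 to 91.9 CPM against 86.4 to 166 CPM, with Prg4 called lower and Clic5 at 0 in Saa3-high cells. Mural markers overlapped, at 50.3 to 105 CPM against 76.4 to 98.5 CPM, with Abcc9 called higher and Myh11 and Cspg4 lower. The part of these cells in the lower matrix and myofibroblast genes was not tested. Satellite cell markers summed to 0 to 0.763 CPM against 0.596 to 6.41 CPM, Schwann markers to 5.90 to 12.2 CPM against 5.43 to 5.80 CPM, epithelial and mesothelial markers to 0 to 0.763 CPM against 0.0816 to 0.459 CPM, and adipocyte markers to 0 to 5.20 CPM against 0.612 to 1.07 CPM. Of these 4 lists only 2 Schwann genes passed the filter on low counts, and neither was called. Pax7, Myf5, Myod1, Sox10, Msln and Cidec were at 0 in Saa3-high cells.

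**Figure D4:**
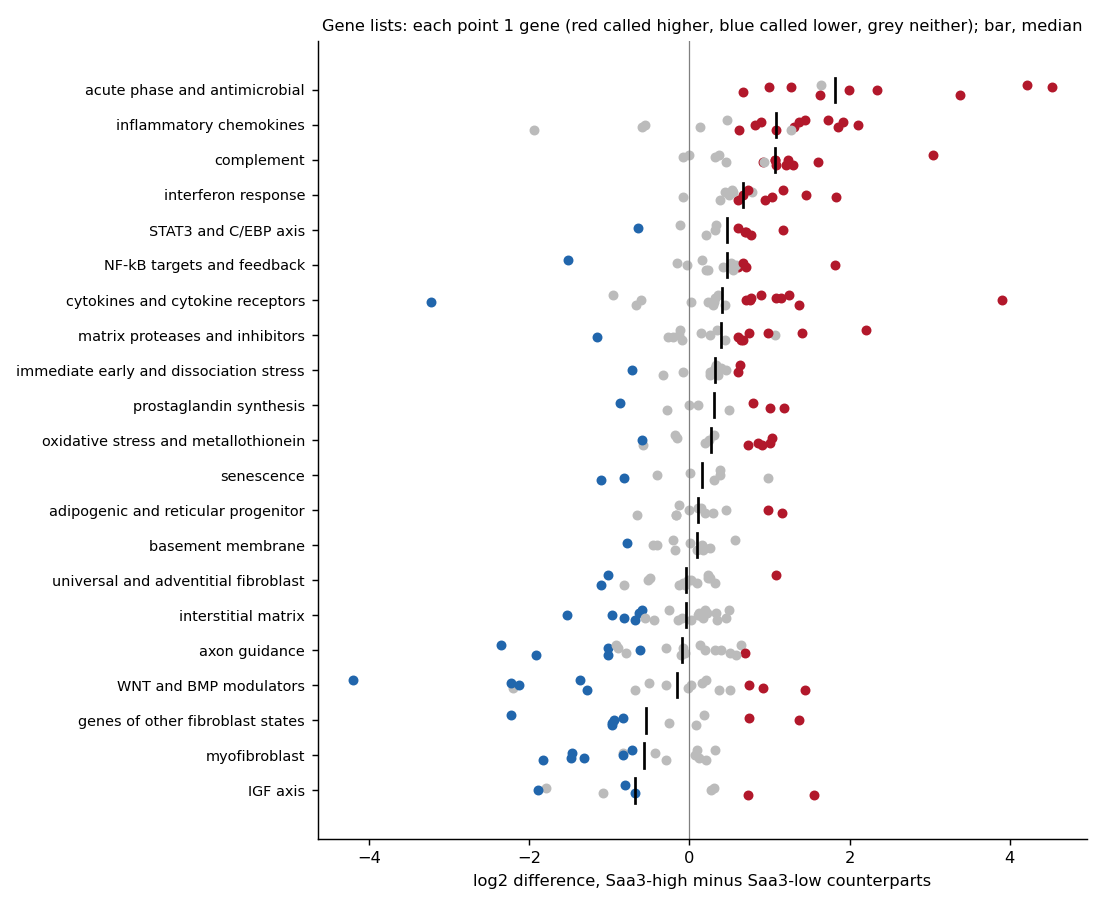
Log2 difference between Saa3-high fibroblasts and their counterparts for each tested gene of 21 lists (1 gene with none in Saa3-high cells is not drawn), coloured by call, with the list's median as a bar. The medians of acute-phase, chemokine and complement genes lie furthest to the right, with no gene called lower, and those of myofibroblast and insulin-like growth factor genes furthest to the left.

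Levels of some genes followed the amount of Saa3, which is given as a description with no test. The 3411 fibroblasts were divided into bands of Saa3, and levels are given in the order 0, 1 to under 5, 10 to under 20, and 40 or more UMIs per 10000. In replicate 2, which had the most cells, Cxcl12 was at 385, 1021, 1871 and 3128 CPM, and Hp at 30.05, 157, 268 and 898 CPM. Igfbp6 ran the other way, at 1589, 715, 516 and 337 CPM. Mmp13 had no such order, at 171, 568, 423 and 513 CPM, and nor did Slit2, at 250.1, 339.5, 585 and 454 CPM. Replicates 1 and 3 had the same order for Cxcl12 in these bands, up to 1965 and 3122 CPM, although with only 18 and 9 cells in the top band. Cells from 1 to under 5, which the rule left out, already had Igfbp6 at 658, 715 and 376 CPM by library, against 1920, 1589 and 1513 CPM in cells with no Saa3.

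The 236 cells were not uniform. Clustering them by 1000 variable genes, without the rule genes, gave 4 sub-clusters of 89, 83, 35 and 29 cells, each present in all 3 libraries. They are a description, with no test and no cell type name. Sub-cluster 1 was led by Spp1 (osteopontin), at 1698 CPM against 21.6 CPM in the other cells, Tnc (tenascin-C), at 1793 against 51.9 CPM, Aqp1 and Mmp13. Its Mmp13 was at 1327 CPM, against 76.0, 2.67 and 173 CPM in sub-clusters 2, 3 and 4, and its Cxcl5 at 1717 CPM, against 204, 14.7 and 360 CPM. Its C3 was lowest, at 1870 CPM, against 5973 to 12363 CPM in the others. Spp1 UMIs were seen in 121 and Cxcl5 UMIs in 138 of the 236 cells. Spp1 itself, at 784, 841 and 831 CPM against 521, 1264 and 688 CPM in counterparts, was not called (edgeR adjusted p = 0.847).

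Sub-cluster 3 was led by Cxcl13, Cxcl10, Pcolce2, Ntrk2, the neurotrophin receptor, and Ifit1, and had the highest C3 (12363 CPM), Cxcl12 (4321 CPM), Hp (1378 CPM), Ptx3 (845 CPM), Lcn2 (111 CPM), Il6 (989 CPM) and Ccl19 (302 CPM) of the 4. Cxcl10 was at 1329 CPM there and at 10.6 to 133 CPM in the rest, and within the sub-cluster it was at 1598, 1439 and 397 CPM by library. With 35 cells in all and 5 in replicate 3, these levels rest on few cells. Sub-cluster 2 was led by Kcne4, Kirrel3, Eya4 and Slc4a4, and sub-cluster 4 by Mlana, Ccl8, Pltp and Mmp3 (4752 CPM, against 1170 to 2958 CPM elsewhere). Median depths were 35694, 28322, 20603 and 21617 UMIs in sub-clusters 1 to 4, and their part in the sub-clusters was not tested. Saa3 itself was at 3323, 3978, 4403 and 5528 CPM in the same order.

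**Figure D5:**
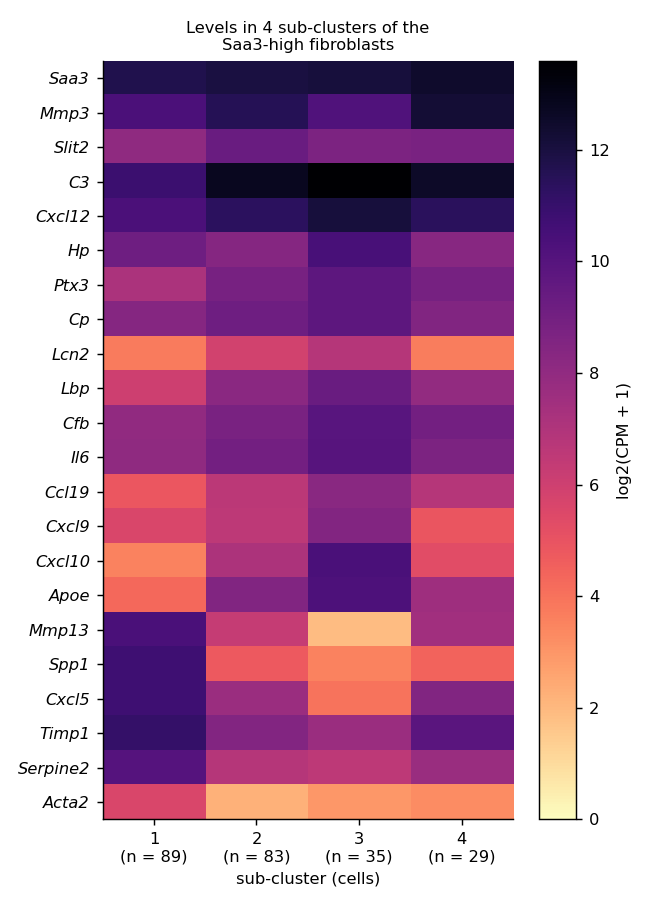
Levels, as log2(CPM + 1) of UMIs summed over cells of all libraries, of 22 genes in the 4 sub-clusters of 89, 83, 35 and 29 Saa3-high fibroblasts. Spp1, Cxcl5, Mmp13 and Serpine2 are highest in sub-cluster 1, and C3, Cxcl12, Hp, Cxcl10 and Apoe in sub-cluster 3.

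Pi16-positive Saa3-high fibroblasts, which the rule left out, allowed the Saa3 difference to be measured in other cells. This comparison and the following ones within Pi16-positive cells were chosen after seeing the data. Between 543 Saa3-high and the Saa3-low Pi16-positive fibroblasts, 482 (3.44%) of 14010 genes were called higher and 536 (3.83%) lower. Of 11 acute-phase genes, 10 were called higher and none lower (median log2 difference 1.79). Hp was at 522, 567 and 290 CPM against 70.0, 58.8 and 27.0 CPM (3.18 ± 0.09 SE, edgeR adjusted p = 1.48e-07), and Cp had a difference of 1.98 and Chl1 one of 2.17. Of 17 chemokines 8 and of 15 complement genes 8 were called higher, with 0 and 1 lower. Of 15 interferon-response genes, none was called in either direction there.

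The gene lists of the Saa3 contrast in the 2 kinds of fibroblast overlapped. Among 13595 genes tested in both, 253 were called higher in both, which is 51.7% of the 489 from the cells with at most 2 Pi16 UMIs and 53.4% of the 474 from Pi16-positive cells. Of the lower genes, 168 were shared (38.8% of 433 and 33.9% of 495). Few genes were called in opposite directions, 6 and 2. A direct test of the difference, an interaction term over the 4 classes, called 196 of 14842 genes (1.32%) with a larger and 117 (0.788%) with a smaller log2 difference in the cells with little Pi16. These calls rest on an edgeR adjusted p under 0.05 with no fold limit, so their shares are not on the scale of the others. Ptx3, Mmp13 and Gbp5 were among those with a larger difference, as were Rsad2, Cxcl10 and Cxcl9, which were chosen after their values were seen. Acta2, Anxa8 and Igfbp6 were among those with a smaller, more negative one. Hp was not called (1.04, edgeR adjusted p = 0.146).

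Set directly against Saa3-high Pi16-positive fibroblasts, 83 (0.766%) of 10830 genes were higher in the 236 cells and 110 (1.02%) lower. The counts were 14 and 17 without replicate 1, 36 and 50 without replicate 2, 42 and 62 without replicate 3, 16 and 30 with no library block, and 192 and 232 with no filter on low counts. Hp (488, 560 and 555 CPM against 518, 566 and 292 CPM) and Ptx3 (561, 335 and 191 CPM against 519, 404 and 197 CPM) overlapped, with log2 differences of 0.26 ± 0.17 (SE) and -0.07 ± 0.10 (SE). Mmp13 had the largest positive difference by the naming rule, at 500, 592 and 994 CPM against 23.6, 83.7 and 79.6 CPM (log2 difference 3.54 ± 0.24 SE, edgeR adjusted p = 0.000261). Spp1 was at 746, 805 and 796 CPM against 194, 243 and 183 CPM (1.92 ± 0.10 SE, edgeR adjusted p = 5.47e-05), and Clstn2 and Cxcl5 had differences of 2.30 and 1.41. Mmp13, Spp1, Clstn2 and Cxcl5 were also highest in sub-cluster 1. By plain totals, Saa3-low counterparts held Spp1 at 542, 1286 and 712 CPM and Mmp13 at 99.6, 207 and 182 CPM. These too lay above the Saa3-high Pi16-positive levels in each library, so for Spp1 and Mmp13 the difference was not particular to Saa3-high cells. On the lower side were Lbp, the lipopolysaccharide-binding protein, at 271, 227 and 125.5 CPM against 799, 641 and 609 CPM (-1.75 ± 0.15 SE, edgeR adjusted p = 0.000765), and the adventitial fibroblast gene Dpp4 (-1.89), whose edgeR adjusted p was 0.121 without replicate 1. Of the acute-phase list 1 gene was higher and 2 lower of 9, of the chemokines 2 and 0 of 16, and of complement 0 and 2 of 12. Of 16 universal and adventitial genes, 11 were lower and none higher (median -0.67), a list that Pi16, used to divide these cells, is known to mark.

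Against all 4998 Pi16-positive fibroblasts, Saa3-high ones included, 487 (3.49%) of 13960 genes were higher and 651 (4.66%) lower, or 418 lower with cells thinned. Mmp13 led again, with 507, 599 and 996 CPM against 26.1, 48.2 and 45.5 CPM (log2 difference 4.11 ± 0.14 SE, edgeR adjusted p = 1.30e-09), before Cxcl5 (3.06), Spp1 (2.85), Clstn2 (2.59) and Rgs16 (2.56). For Mmp13, Cxcl5 and Spp1 the Saa3-low counterparts also lay above Pi16-positive cells in each library. By plain totals, counterparts held Mmp13 at 99.6, 207 and 182 CPM, against 26.1, 47.5 and 45.4 CPM. Their Cxcl5 was at 360, 418 and 275 CPM, against 133, 134 and 53.8 CPM. Their Spp1 was at 542, 1286 and 712 CPM, against 74.5, 154 and 110 CPM. The largest negative differences were those of Car8 (-5.00), Efhd1 (-4.92), Smpd3 (-4.73), Cadm3 (-4.17) and Mgll (-3.89). Car8, Efhd1 and Smpd3 were also among the most negative in the Saa3 contrast within Pi16-positive cells, at -2.90, -2.93 and -3.18. Of the 16 universal and adventitial genes, 15 were lower and none higher (median -1.58). Pi16, used to divide these cells too, is known to mark this list, so the count is no independent result. C3 was at 5128, 5273 and 4422 CPM against 3837, 4233 and 3881 CPM, a log2 difference of 0.31, beside 1.60 against the counterparts (no test).

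The 168 Eln-high fibroblasts, at least 20 Eln UMIs per 10000 and at most 2 Pi16 UMIs, were the smallest class compared. Of 9180 genes tested, 620 (6.75%) were higher in Saa3-high cells and 691 (7.53%) lower, 380 and 385 with DESeq2, and 263 and 232 with cells thinned, where fewer genes passed the filter. Cxcl5 was at 676, 967 and 859 CPM against 11.1, 4.16 and 4.36 CPM (log2 difference 7.13 ± 0.30 SE, edgeR adjusted p = 9.52e-08), and Spp1 at 741, 803 and 793 CPM against 5.54, 14.8 and 13.1 CPM (6.06 ± 0.23 SE, edgeR adjusted p = 6.14e-08). Mmp13 had no UMI in the Eln-high cells of replicates 1 and 3 and 1.39 CPM in replicate 2, against 497, 591 and 990 CPM. Saa3-low counterparts also lay above Eln-high cells for Cxcl5, Spp1 and Mmp13 in each library. By plain totals, counterparts held Cxcl5 at 360, 418 and 275 CPM, against 10.7, 4.01 and 4.06 CPM. Their Spp1 was at 542, 1286 and 712 CPM, against 5.35, 14.3 and 12.2 CPM. Their Mmp13 was at 99.6, 207 and 182 CPM, against 0, 1.34 and 0 CPM. Of the chemokines 12 of 14 were called higher and none lower. Lower genes by the naming rule were Acta1, Frmpd4 and Fmod, besides Hs3st5, a heparan sulphate sulphotransferase (0.725, 1.64 and 0 CPM against 172, 245 and 164 CPM), and Fgf9, a growth factor (0, 0.703 and 0 CPM against 54.3, 65.1 and 42.2 CPM). Fmod, a tenocyte marker, was at 0.725, 42.4 and 3.72 CPM against 508, 540 and 544 CPM, and the call of Acta1, skeletal muscle actin, was lost without replicate 2. Tenocyte markers summed to 320 to 416 CPM in Saa3-high cells and 1598 to 3615 CPM in Eln-high cells, with 3 of 4 tested called lower, and muscle fibre markers to 10.4 to 22.2 CPM against 37.4, 673 and 44.6 CPM. Their part in the comparison was not tested. Mmp3 was at 2549, 2046 and 1947 CPM against 1712, 1089 and 1175 CPM, a marker gene given with no test.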

How the data were processed

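Single-cell RNA was measured in 3 libraries of 1 group (10x Genomics 3′ chemistry per the labels). The values the authors deposited are raw UMI counts for each gene in each barcode. Cell Ranger is given as 6.1.2 in the submitters' processing notes and as 7.0.0 per the file headers. Genome build, annotation and use of intronic reads: not given in the sources used here. Copies and overlapping genes may share UMIs. Promoters come from RefSeq (GRCm38.p6), matched by symbol for 10 of 11 genes looked up (not Hp).

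Saa3-high cells, the classes and the 34 gene and marker lists were chosen with earlier results of these data known. Class sums of UMIs by library went into edgeR 4.0.16 under R 4.3.3 (filterByExpr, TMM, quasi-likelihood test, library as a block). CPM use TMM library sizes, except across cell types, where they use plain totals. Genes were named by a rule: the 10 largest differences each way (5 in the later comparisons) among called genes in 1 direction in 3 of 3 libraries and at 50 CPM or more on the higher side, up to 4 called genes per list, and the rule and marker genes. Other genes, among them Spp1, Ccl2, Ccl7, Mmp2 and Timp1, were chosen after their values were seen. Doublets were scored with Scrublet in scanpy 1.11.5 and kept in, except in an alternative without the top 0.8% per 1000 barcodes. Sub-clusters used 15 components and Leiden resolution 0.5. Alternatives were DESeq2 1.42.0, its size factors, no filter, no library block, each replicate left out, at least 5000 UMIs, thinning and other Saa3 limits. The fits were tested on simulated data. The precision is limited by 30 to 39 cells in the smallest sums.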

Additional observations from a re-analysis of the deposited data

Results flagged for a closer look

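For 9 genes the difference between Saa3-high fibroblasts and their counterparts was called larger in size than the Saa3 difference in Pi16-positive fibroblasts, by a test of the difference of the 2 differences (edgeR interaction term, n = 3 libraries, Benjamini-Hochberg adjusted). The test was chosen after seeing the data. The 9 come from the 20 genes picked for the largest values of the first of these differences, so an excess in that direction is built into the choice and their number supports nothing. Over all 14842 genes tested, 1.32% were called with a larger and 0.788% with a smaller log2 difference, at an edgeR adjusted p under 0.05 and no fold limit. The positive difference was larger in the cells with at most 2 Pi16 UMIs for Ptx3 by 1.51 on the log2 scale (2.34 against 0.84, edgeR adjusted p = 0.0149), for Mmp13 by 1.49 (2.20 against 0.69, edgeR adjusted p = 0.0162), for Gbp5 by 1.41 (2.10 against 0.68, edgeR adjusted p = 0.0162) and for Lgi2 by 0.83 (2.12 against 1.29, edgeR adjusted p = 0.00159). The difference was more negative there for Anxa8 (a difference of differences of -1.80, from -2.21 against -0.49), Cdh13 (-1.59, from -2.02 against -0.40, where neither was called in Pi16-positive cells), Cd109 (-0.835, from -2.10 against -1.34) and Igfbp6 (-0.833, from -1.89 against -1.05), with edgeR adjusted p-values of 0.0126, 0.0105, 0.0373 and 0.00598. Acta2 gave -2.31 (edgeR adjusted p = 0.0383), from -1.83 in the cells with little Pi16 and 0.46 in Pi16-positive cells, where it was not called.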

How the results depend on the processing

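Genes called higher or lower between Saa3-high cells and counterparts numbered 496 and 442, and 277 and 249 with cells thinned to 5000 UMIs. Leaving out 1 replicate at a time gave 300 to 519 higher and 255 to 425 lower. Against Pi16-positive fibroblasts, thinning gave 418 lower genes in place of 651. Against Eln-high fibroblasts, DESeq2 gave 380 and 385 and thinning 263 and 232, in place of 620 and 691. The comparison with Saa3-high Pi16-positive fibroblasts moved most: 83 higher and 110 lower became 53 higher with DESeq2, 192 and 232 with no filter on low counts, 16 and 30 with no library block, 53 and 67 with thinning, and 14 to 42 and 17 to 62 with 1 replicate left out. Within Pi16-positive cells, higher genes fell from 482 to 318 with no library block. The causes were not tested, except that thinning and a missing filter change the number of genes tested. Counts under the other alternatives run stayed within 1.5 times. Of 1075 values for 90 named genes in the first comparison, 996 kept their call, 79 lost it and none reversed. Mean shares ran from 0.923% to 1.26% of quality barcodes and from 5.01% to 6.36% of fibroblasts passing the other criteria under other limits on UMIs, Saa3 or doublets. With 1 replicate left out they ran from 0.794% to 1.41% and from 5.33% to 6.82%. Every comparison was paired within library, since each library gives a sum of each class and the fit has the library as a block.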

Other observations

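Growth-factor and signalling genes were divided in Saa3-high fibroblasts relative to their counterparts. Of 9 genes of the insulin-like growth factor axis, 2 were called higher and 3 lower (median log2 difference -0.68). Igfbp4 was at 1917, 2044 and 1850 CPM against 565, 715 and 706 CPM (1.56 ± 0.08 SE, edgeR adjusted p = 1.42e-07), and Igf1 at 894, 918 and 713 CPM against 501, 520 and 498 CPM (0.73 ± 0.08 SE, edgeR adjusted p = 8.38e-05), whereas Igfbp3, Igfbp5 and Igfbp6 were lower. Of 18 WNT and BMP modulators, 3 were higher (Sfrp1, Sfrp2 and Gdf10) and 5 lower (Dkk2, Wnt2, Bmp4, Bmp5 and Chrdl1), with a median of -0.16. Sfrp1, a secreted WNT antagonist, was at 224, 286 and 196 CPM against 83.8, 91.4 and 82.4 CPM (1.45 ± 0.10 SE, edgeR adjusted p = 9.23e-07). Of 20 axon guidance genes other than Slit2, Ephb3 was higher and 5 were lower (Robo1, Ntn1, Ntn4, Sema3c and Sema3e), with a median of -0.10. Ntn1, netrin-1, was at 9.99, 9.08 and 8.57 CPM against 46.7, 48.4 and 44.5 CPM (-2.36 ± 0.16 SE, edgeR adjusted p = 7.63e-07).

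Stress and metabolic genes were called in both directions. Of 12 oxidative stress and metallothionein genes, 5 were higher (Mt1, Mt2, Slc7a11, Gpx3 and the zinc importer Slc39a14) and 1 lower (Srxn1), with a median of 0.27. Slc7a11 lost its call under 5 alternatives, with an edgeR adjusted p of 0.349 without replicate 1 and 0.279 with cells thinned. Mt2 was at 2138, 1438 and 1382 CPM against 858, 873 and 706 CPM (1.00 ± 0.10 SE, edgeR adjusted p = 2.19e-05). Of 8 prostaglandin genes, Ptgs2, Hpgd and Pla1a were higher and Ptgis lower (median 0.30). Ptgs2, cyclooxygenase-2, lost its call without replicate 1 (edgeR adjusted p = 0.141), and Hpgd without replicate 2 (0.172) and without replicate 3 (0.118). Of 8 senescence genes, Cdkn1a and Cdkn2a were lower and none higher (median 0.16): Cdkn1a, the p21 inhibitor, was at 114, 134 and 65.5 CPM against 226, 236 and 209.6 CPM (-1.10 ± 0.13 SE, edgeR adjusted p = 0.000121). Of 13 immediate early and dissociation stress genes, Ier3 and Zfp36 were higher and Hspa1b lower (median 0.32). Ier3 and Zfp36 lost their calls with cells thinned, Ier3 also with no library block and Zfp36 also with no filter on low counts. Hspa1b lost its call with no library block, without replicate 1 and without replicate 3. Of 16 universal and adventitial genes, Efemp1 was higher and Sema3c and Pcolce2 lower (median -0.04). Of 13 adipogenic and reticular progenitor genes, Lpl and Apoe were higher and Lepr, with 0 UMIs in all Saa3-high cells, lower (median 0.11). Of 10 genes of other fibroblast states, Cxcl5 and Gdf10 were higher and Lrrc15, Abca8a, Crabp2, Tgm2 and Inmt lower (median -0.54). Inmt lost its call under 4 alternatives. Without replicate 2, the calls of Pla1a, Pcolce2, Lepr and Crabp2 were lost. Apoe lost its call with no library block, and Cdkn2a with cells thinned.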
